A study of Mus musculus with 6 samples.

Results

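The genes for the NF-kB subunits, their inhibitors and 1 of their activating kinases were followed in resting bone-marrow-derived macrophages (BMDMs) with and without CITED2. The 10 genes were taken by name, as the 5 subunit genes *Nfkb1*, *Nfkb2*, *Rela*, *Relb* and *Rel*, the 4 inhibitor genes *Nfkbia*, *Nfkbib*, *Nfkbiz* and *Tnfaip3*, and the kinase gene *Ikbkb*. They are 10 of the 22248 genes listed for each library. RNAseq was performed on 6 libraries of unstimulated BMDMs, cells grown from bone marrow in medium with macrophage colony-stimulating factor. The 3 control libraries were made from *Lyz2*cre BMDMs and the 3 CITED2-deficient ones from *Cited2* fl/fl:*Lyz2*cre BMDMs. All mice were of the C57BL/6 strain and are labelled postnatal week 10, while the methods of the study give another age. Both genotypes carried a single Cre allele in the *Lyz2* locus, which is active in myeloid cells, and the deficient mice carried floxed *Cited2* at both alleles, so the controls share the Cre insertion but have no floxed allele. The labels do not tie a library to a mouse, and the p-values measure the spread between these libraries.

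NF-kB is a family of dimeric transcription factors that drives much of the inflammatory gene expression of macrophages. In resting cells the dimers are held in the cytoplasm by IkB proteins. Signals from Toll-like and cytokine receptors activate the IkB kinase (IKK) complex, IkB is phosphorylated and degraded, and the freed dimers enter the nucleus. Several inhibitors are themselves transcribed from NF-kB sites and close a feedback loop. The localization, phosphorylation and protein level of these factors were not measured here, only their RNA.

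*Cited2* (ENSMUSG00000039910), the targeted gene, was at 71.7, 79.3 and 75.5 FPKM in the control libraries (replicates 1 to 3, the order used throughout) and at 9.27, 7.22 and 7.53 FPKM in the deficient libraries. FPKM is the number of fragments scaled to transcript length and library size. The depth recovered from the FPKM was 17289285 to 18952077 fragments per control library and 22583995 to 26100412 per CITED2-deficient library. Limma on log2(FPKM + 1) called 1950 genes higher and 4044 lower in CITED2-deficient BMDMs, of 11687 with a mean FPKM of at least 1, at a Benjamini-Hochberg adjusted p under 0.05. The median log2 fold change of these genes was -0.10, and it was -0.014 after median-ratio scaling between libraries. Of 10 macrophage markers, 1 was called higher and 6 lower, and their summed FPKM was 6397 to 6514 in control and 5996 to 6037 in CITED2-deficient libraries. The 1 called higher was *Fcgr1*, at 172, 172 and 173 FPKM in control libraries and at 468, 501 and 478 in CITED2-deficient libraries (log2 fold change 1.48). Among the 6 called lower was *Lyz2*, the locus that carries Cre. It was at 30.8, 30.6 and 32.5 FPKM in control libraries and at 9.39, 9.82 and 10.0 in CITED2-deficient libraries (log2 fold change -1.59). The summed FPKM of 10 fibroblast or stromal markers was 44.4 to 52.7 in control libraries, 555 in CITED2-deficient replicate 1 and 176 and 177 in replicates 2 and 3, and the 7 of them that were tested were all called higher. None of these 10 markers was at 0 in every library. *Pdgfrb* was at 0.987, 0.876 and 0.945 FPKM in control libraries and at 3.03, 2.08 and 2.23 in CITED2-deficient libraries. It passed the filter only through the CITED2-deficient libraries. Of 9 tested markers of neutrophils and their precursors, 2 were called higher, *Ltf* and *Mmp8*, at log2 fold changes of 0.90 and 0.70. The 6 called lower included *Elane*, *Mpo* and *Prtn3* at log2 fold changes of -2.08, -2.54 and -2.12. The list summed to 743 to 812 in control and 666 to 784 in CITED2-deficient libraries. The endothelial list summed to 6.00 to 6.25 and 27.4 to 32.6, mostly through *Kdr*, and the mast cell and basophil list to 2.61 to 3.17 and 0.453 to 0.618. The erythroid list summed to 2.26 to 2.88 and 0.825 to 1.42, the list of B and plasma cells to 13.7 to 18.8 and 16.9 to 21.1, and those of T and NK cells and of dendritic cells to at most 1.38 and 0.724. The part of these markers in the results on the NF-kB genes was not tested.

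The sequence before the transcription start was examined because NF-kB is known to act on the genes of its own inhibitors and subunits. The RefSeq promoter table held 6 of the 10 genes with 9 starts, and the 250 bases before each start were searched on both strands for the kappaB consensus (GGG, a purine, any 2 bases, 2 pyrimidines and CC). *Nfkb1*, *Relb*, *Nfkbiz* and *Ikbkb* were not among the 6. A match was found before 6 of the 9 starts and in 4 of the 6 genes, while 7.25% of all 32851 windows of this length held a match. The windows of the 3 genes called higher and of *Nfkbia* are given 5′ to 3′ on the strand of the gene in GRCm38.p6 (the mm10 assembly), with matches in capitals.
Rel, chr11:23770970-23771219, minus strand: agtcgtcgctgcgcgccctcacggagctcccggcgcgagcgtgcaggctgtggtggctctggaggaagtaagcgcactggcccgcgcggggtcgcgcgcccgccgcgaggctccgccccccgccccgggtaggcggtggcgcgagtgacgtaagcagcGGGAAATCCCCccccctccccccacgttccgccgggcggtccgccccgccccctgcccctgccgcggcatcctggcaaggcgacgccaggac
Nfkbib, chr7:28766645-28766894, minus strand: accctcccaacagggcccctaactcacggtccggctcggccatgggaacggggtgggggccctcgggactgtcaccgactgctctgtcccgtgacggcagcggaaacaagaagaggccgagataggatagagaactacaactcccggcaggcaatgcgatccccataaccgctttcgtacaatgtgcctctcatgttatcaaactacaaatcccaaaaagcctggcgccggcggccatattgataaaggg
Tnfaip3, chr10:19015411-19015660, minus strand: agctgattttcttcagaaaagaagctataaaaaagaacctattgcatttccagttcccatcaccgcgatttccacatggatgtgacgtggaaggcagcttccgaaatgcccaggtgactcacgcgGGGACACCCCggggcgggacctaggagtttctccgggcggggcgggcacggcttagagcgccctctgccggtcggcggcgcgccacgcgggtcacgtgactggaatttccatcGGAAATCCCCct
Nfkbia, chr12:55492648-55492897, minus strand: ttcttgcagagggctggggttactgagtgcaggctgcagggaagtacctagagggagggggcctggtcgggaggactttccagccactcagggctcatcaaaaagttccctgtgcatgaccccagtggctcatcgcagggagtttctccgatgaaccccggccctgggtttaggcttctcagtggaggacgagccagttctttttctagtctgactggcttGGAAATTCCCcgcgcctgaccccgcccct

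*Tnfaip3* held 2 matches, starting 125 and 12 bases before its first start, and none before its second start. *Rel* held 2 overlapping matches, which begin 92 and 91 bases before the start and appear as 1 run of capitals. *Nfkbia* held 1 match, 29 bases before the start. *Nfkbib* and *Rela* held none in this window. The RefSeq starts of *Nfkbib*, *Tnfaip3*, *Nfkb2* and *Rela* lie inside the GENCODE extents of these genes, and other starts were not searched. *Nfkb2* held 3 matches before its first start, of which 2 overlap, and 1 before each of the other 2 starts. Of the genes with a match, *Rel* and *Tnfaip3* were called higher and *Nfkb2* and *Nfkbia* were not called, and *Nfkbib* was called higher without a match. A match describes the letters only, and binding was not measured.

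**Figure D1:**
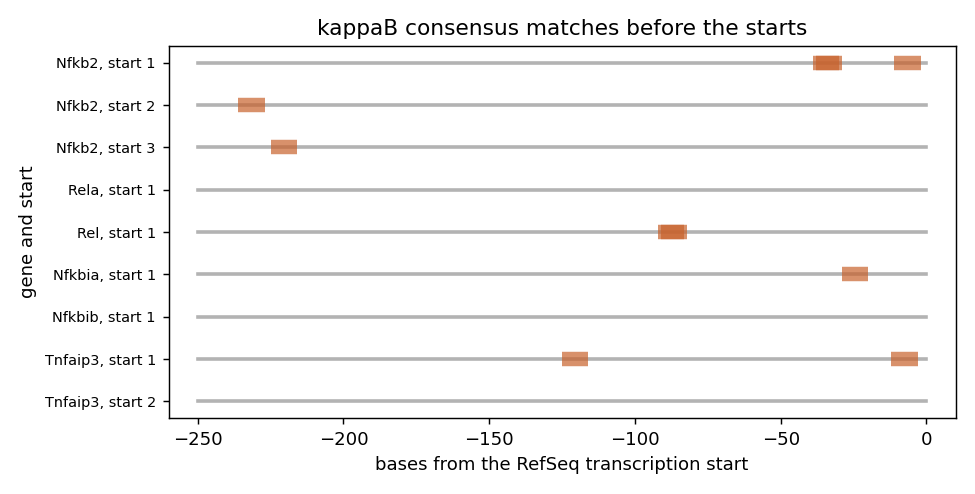
Matches to the kappaB consensus (orange blocks) in the 250 bases before each of 9 RefSeq starts of 6 genes, plotted by distance from the start in bases; darker stretches are overlapping matches. Matches lie before 6 of the 9 starts, and *Rela*, *Nfkbib* and the second start of *Tnfaip3* have none.

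The RNA of the NF-kB subunits and inhibitors differed by small amounts between the genotypes, and the differences that passed the test were increases of 3 genes. *Nfkbib* and *Tnfaip3*, which encode inhibitors, and *Rel*, which encodes the subunit c-Rel, were called higher, and 0 of the 10 genes were called lower. All 10 passed the filter on low values and were tested. Of all tested genes, 51.3% were called, 16.7% higher and 34.6% lower. After median-ratio scaling 4 of the 10 genes were called higher, with *Relb* as the fourth, and 0 lower, against 44.5% of all genes called, 22.5% higher and 22.0% lower. On the deposited scale the log2 fold changes of the 10 genes ranged from -0.10 to 0.28. All were under 0.3 in size, as were those of 65.7% of all tested genes. After median-ratio scaling *Nfkbib* (0.37) and *Tnfaip3* (0.36) exceeded 0.3, and with voom on the recovered fragments *Rel* (0.301) did too. In 3 genes (*Rel*, *Nfkbib* and *Tnfaip3*) every CITED2-deficient library was above every control library, in 3 (*Nfkb1*, *Nfkb2* and *Ikbkb*) every one was below, and in 4 the groups overlapped. Over all tested genes, the groups did not overlap in 59.9%, with the CITED2-deficient group higher in 19.0% and lower in 40.9%. In bulk RNA, fewer cells of a type and less RNA per cell cannot be told apart.

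**Figure D2:**
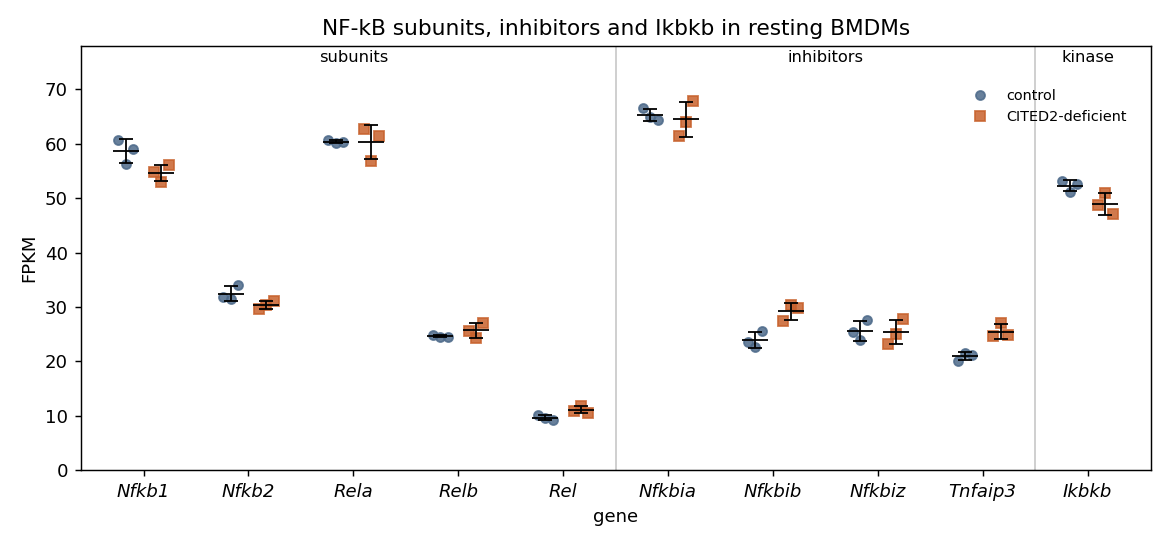
FPKM of the 10 genes in each library (1 point per library), with the mean and SD of each group of 3 as bars. The levels run from about 10 for *Rel* to about 65 for *Nfkbia*, and the CITED2-deficient points lie wholly above the control points for *Rel*, *Nfkbib* and *Tnfaip3*.

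The Rel-domain subunits that can activate transcription are encoded by *Rela*, *Relb* and *Rel*. *Rel* (ENSMUSG00000020275; chromosome 11, 23736847 to 23770970, minus strand) encodes c-Rel, a subunit best known in lymphoid cells and in the induction of interleukin-12 by macrophages. Its FPKM was 10.1, 9.59 and 9.29 in control libraries and 10.9, 11.9 and 10.6 in CITED2-deficient libraries. The 3 CITED2-deficient libraries lay above the 3 control libraries, with replicate 2 the highest. The mean rose from 9.67 ± 0.422 (SD, n = 3) to 11.1 ± 0.667 (SD, n = 3), a difference of 15.0%. The log2 fold change was 0.18 (SE 0.067, 95% interval 0.032 to 0.33, adjusted p = 0.0458 by limma). This call was near the threshold. It was lost when any of the other libraries than CITED2-deficient replicate 3 was left out, with adjusted p from 0.0509 without control replicate 1 to 0.158 without CITED2-deficient replicate 2. It was also lost without the filter on low values (adjusted p = 0.0806), and was kept after median-ratio scaling (0.27, adjusted p = 0.0096).

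*Rela* (ENSMUSG00000024927; chromosome 19, 5637483 to 5648130, plus strand) encodes p65, the subunit of the main activating dimer. Its FPKM was 60.7, 60.2 and 60.3 in control libraries and 62.8, 56.8 and 61.4 in CITED2-deficient libraries. The groups overlapped, and the lowest and the highest library were both CITED2-deficient. The means were 60.4 ± 0.275 and 60.3 ± 3.09 (SD, n = 3 each), and the log2 fold change was -0.0033 (95% interval -0.099 to 0.093, adjusted p = 0.955 by limma). *Relb* (ENSMUSG00000002983; chromosome 7, 19606217 to 19629438, minus strand) encodes the subunit of the noncanonical dimer with p52. Its FPKM was 24.8, 24.6 and 24.5 in control libraries and 25.7, 24.4 and 27.1 in CITED2-deficient libraries. The groups overlapped through CITED2-deficient replicate 2, the lowest of the 6 libraries. The log2 fold change was 0.059 (95% interval -0.052 to 0.17, adjusted p = 0.341 by limma). After median-ratio scaling it was 0.15 and passed the threshold (adjusted p = 0.0322), as it did with voom on the recovered fragments (0.17, adjusted p = 0.0162).

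*Nfkb1* and *Nfkb2* encode the precursors p105 and p100, which are cut to the DNA-binding subunits p50 and p52 and, uncut, hold other subunits back. *Nfkb1* (ENSMUSG00000028163; chromosome 3, 135584655 to 135691547, minus strand) had an FPKM of 60.7, 56.4 and 59.0 in control libraries and of 54.7, 53.1 and 56.1 in CITED2-deficient libraries. *Nfkb2* (ENSMUSG00000025225; chromosome 19, 46304320 to 46312385, plus strand) had 31.8, 31.5 and 34.1 in control libraries and 29.7, 30.4 and 31.1 in CITED2-deficient libraries. For both genes the CITED2-deficient libraries were the 3 lowest, but neither gene passed the threshold. *Nfkb2* overlaps *Psd* on the opposite strand over 299 bases. *Psd* had an FPKM of 6.46, 6.09 and 7.26 in control libraries and of 5.05, 4.58 and 5.01 in CITED2-deficient libraries. It was called lower (log2 fold change -0.37, adjusted p = 0.00627 by limma). The part of this overlap in the value of *Nfkb2* was not tested. The log2 fold change of *Nfkb1* was -0.10 (95% interval -0.19 to -0.0093, adjusted p = 0.0642 by limma). That of *Nfkb2* was -0.091 (95% interval -0.19 to 0.012, adjusted p = 0.125). These differences were close to that of the median gene. Minus the median over all tested genes they were -0.00070 and 0.0094, and after median-ratio scaling -0.0069 and 0.0019. *Nfkb1* passed the threshold when control replicate 2, its lowest control, was left out (log2 fold change -0.13, adjusted p = 0.0354).

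Summed over the 5 subunit genes, the FPKM was 186 ± 3.15 (SD, n = 3) in control and 182 ± 5.08 in CITED2-deficient libraries, a ratio of 0.980. *Rela* made up 32.5% of this sum in control and 33.1% in CITED2-deficient libraries, and *Nfkb1* 31.6% and 30.0%. The share of *Relb* was 13.2% and 14.1%, and that of *Rel* 5.20% and 6.11%. The RNA of the family was thus mostly that of *Rela* and *Nfkb1* in both genotypes, with *Rel* the smallest share. These shares are per length of transcript and depend on the mean annotated transcript length, which was 7466 bases for *Rel* and 1219 for *Rela*.

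Of the 4 inhibitor genes, 2 were called higher and 2 were not called, against 16.7% higher and 34.6% lower over all tested genes. *Nfkbib* (ENSMUSG00000030595; chromosome 7, 28758251 to 28767512, minus strand) encodes IkB-beta, a cytoplasmic inhibitor of dimers with p65 or c-Rel. Its FPKM was 23.5, 22.7 and 25.6 in control libraries and 27.4, 30.4 and 29.8 in CITED2-deficient libraries. Every CITED2-deficient library exceeded every control library, the nearest being 25.6 and 27.4. The mean rose by 21.9%, from 24.0 ± 1.50 to 29.2 ± 1.54 (SD, n = 3 each), with a log2 fold change of 0.28 (SE 0.059, 95% interval 0.14 to 0.41, adjusted p = 0.00405 by limma). *Nfkbib* overlaps *Sirt2* on the opposite strand over 778 bases. *Sirt2* had an FPKM of 150, 153 and 145 in control libraries and of 124, 124 and 120 in CITED2-deficient libraries, and was called lower (log2 fold change -0.28). The part of this overlap in the value of *Nfkbib* was not tested. The libraries were stranded, but the sources used here do not give the strand setting of the counting.

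*Tnfaip3* (ENSMUSG00000019850; chromosome 10, 19000910 to 19015657, minus strand) encodes A20, which removes ubiquitin chains that carry the signal from receptors to IKK. Its FPKM was 20.2, 21.6 and 21.2 in control libraries and 24.7, 27.0 and 24.8 in CITED2-deficient libraries. The groups did not overlap, and CITED2-deficient replicate 2 was the highest library, as it was for *Nfkbib* and *Rel*. The mean rose by 21.4%, from 21.0 ± 0.751 to 25.5 ± 1.30 (SD, n = 3 each), with a log2 fold change of 0.27 (SE 0.053, 95% interval 0.15 to 0.39, adjusted p = 0.00259 by limma). *Nfkbib* and *Tnfaip3* were called higher under every alternative run, with log2 fold changes from 0.24 to 0.32 and from 0.23 to 0.29 when single libraries were left out. With median-ratio scaling, quantile normalization and voom, *Nfkbib* was at 0.37, 0.33 and 0.39. *Tnfaip3* was at 0.36, 0.33 and 0.38. *Tnfaip3* lies 1275235 bases from *Cited2* on chromosome 10. Of the 6 tested genes within 2 Mb of *Cited2*, *Tnfaip3* was called higher (1 gene) and 3 were called lower, against 16.7% higher and 34.6% lower over all tested genes.

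*Nfkbia* (ENSMUSG00000021025; chromosome 12, 55489410 to 55492647, minus strand) encodes IkB-alpha, the inhibitor that is degraded and remade within a single round of NF-kB activation. Its FPKM was 66.6, 65.0 and 64.4 in control libraries and 61.5, 64.1 and 67.9 in CITED2-deficient libraries. *Nfkbiz* (ENSMUSG00000035356; chromosome 16, 55811375 to 55838899, minus strand) encodes IkB-zeta, a nuclear IkB protein that also helps transcribe secondary response genes. Its FPKM was 25.4, 23.9 and 27.6 in control libraries and 23.3, 25.1 and 27.8 in CITED2-deficient libraries. Both genes overlapped between groups, with a CITED2-deficient library at either end of the order. The log2 fold change of *Nfkbia* was -0.020 (95% interval -0.12 to 0.076, adjusted p = 0.723 by limma). That of *Nfkbiz* was -0.014 (95% interval -0.18 to 0.15, adjusted p = 0.886).

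*Ikbkb* (ENSMUSG00000031537; chromosome 8, 22659212 to 22706589, minus strand) encodes IKK-beta, the catalytic subunit that phosphorylates IkB-alpha and IkB-beta. Its FPKM was 53.1, 51.2 and 52.6 in control libraries and 48.7, 51.0 and 47.1 in CITED2-deficient libraries. The CITED2-deficient libraries were the 3 lowest, though replicate 2 lay just under control replicate 2. The log2 fold change was -0.094 (95% interval -0.19 to -0.0020, adjusted p = 0.0819 by limma), which is 0.0067 above the median of all tested genes, and it was 0.00031 after median-ratio scaling. Without CITED2-deficient replicate 2 the gene passed the threshold (-0.12, adjusted p = 0.0406).

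**Figure D3:**
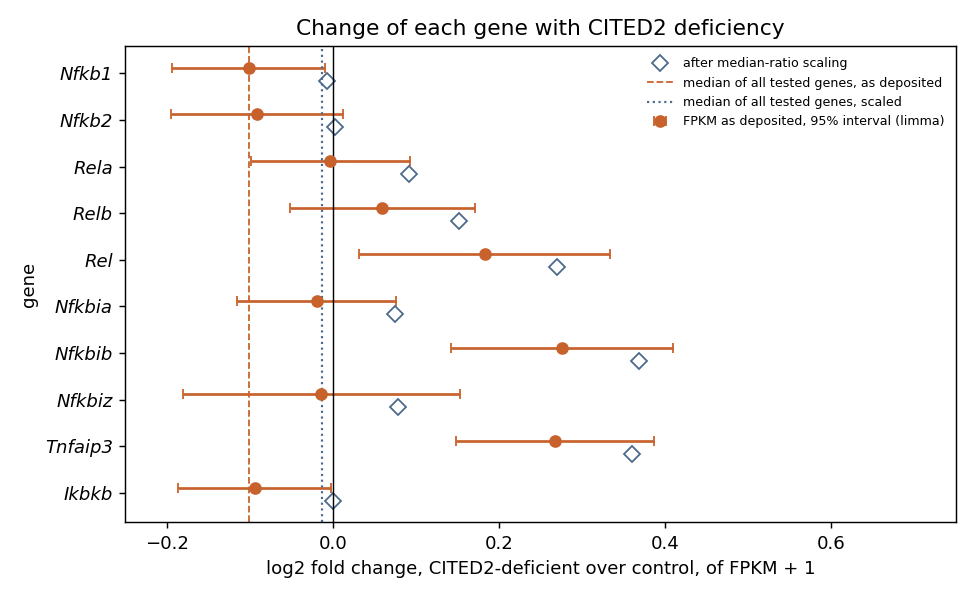
Log2 fold change of FPKM + 1 for the 10 genes, CITED2-deficient over control, with 95% intervals from limma (filled circles) and after median-ratio scaling (open diamonds); dashed and dotted lines mark the median of all 11687 tested genes without and with that scaling. *Nfkb1*, *Nfkb2* and *Ikbkb* sit on the median of all genes, near -0.10, and *Nfkbib* (0.28) and *Tnfaip3* (0.27) lie farthest above it.

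The order of the levels was similar in both genotypes. In control BMDMs *Nfkbia* was highest (mean FPKM 65.3), followed by *Rela* (60.4) and *Nfkb1* (58.7), whose libraries overlapped, and by *Ikbkb* (52.3) and *Nfkb2* (32.5), each apart from its neighbors. *Nfkbiz* (25.6), *Relb* (24.6) and *Nfkbib* (24.0) overlapped with each other. *Tnfaip3* (21.0) and *Rel* (9.67) came last and were separate. In CITED2-deficient BMDMs the first 5 places were the same, but the libraries of *Nfkbia* (64.5) and *Rela* (60.3) overlapped, and those of *Rela* and *Nfkb1* (54.6) did not. *Nfkbib* (29.2) stood in the sixth place and overlapped with *Nfkb2* (30.4), and *Relb* (25.7), *Tnfaip3* (25.5) and *Nfkbiz* (25.4) overlapped with each other. *Rel* (11.1) was last again. The median coefficient of variation of the 10 genes was 3.64% in control and 5.12% in CITED2-deficient libraries, against 5.41% and 5.56% for all tested genes. Each value rested on 507 to 3962 recovered fragments. *Nfkbib* had the fewest, with 507 to 627 in control and 886 to 1004 in CITED2-deficient libraries.

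Ratios within a library do not depend on the scaling between libraries, so 7 were compared with a two-sided exact permutation test, whose smallest possible p with 3 against 3 libraries is 0.1. The ratio of *Nfkbib* to *Nfkbia* was 0.353, 0.349 and 0.397 in control libraries and 0.446, 0.474 and 0.438 in CITED2-deficient libraries (log2 difference 0.31, exact p = 0.1). The ratio of *Tnfaip3* to *Nfkbia* was 0.303, 0.332 and 0.330 in control libraries and 0.402, 0.421 and 0.365 in CITED2-deficient libraries (log2 difference 0.30, exact p = 0.1). *Rel* over *Rela* was 0.167, 0.159 and 0.154 in control libraries and 0.174, 0.209 and 0.172 in CITED2-deficient libraries (log2 difference 0.20, exact p = 0.1). The ratio of *Rel* to *Rela* rested in part on CITED2-deficient replicate 2, and its log2 difference was 0.11 without that library and 0.12 between group medians. The groups did not overlap in these 3 ratios, and all 3 were higher in CITED2-deficient libraries, with a Benjamini-Hochberg adjusted p of 0.233 each by the exact test. In the other 4 ratios the groups overlapped. The share of the noncanonical pair *Nfkb2* and *Relb* in the 5 subunits was 30.7% ± 0.590 in control and 30.8% ± 0.595 in CITED2-deficient libraries (SD, n = 3 each, exact p = 0.8). The log2 difference of *Nfkbia* over the 5 subunits was 0.0092 (exact p = 0.9), that of *Nfkb2* over *Nfkb1* 0.0090 (exact p = 1) and that of *Relb* over *Rela* 0.065 (exact p = 0.2). With a smallest p of 0.1, no ratio could pass the threshold in this design.

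**Figure D4:**
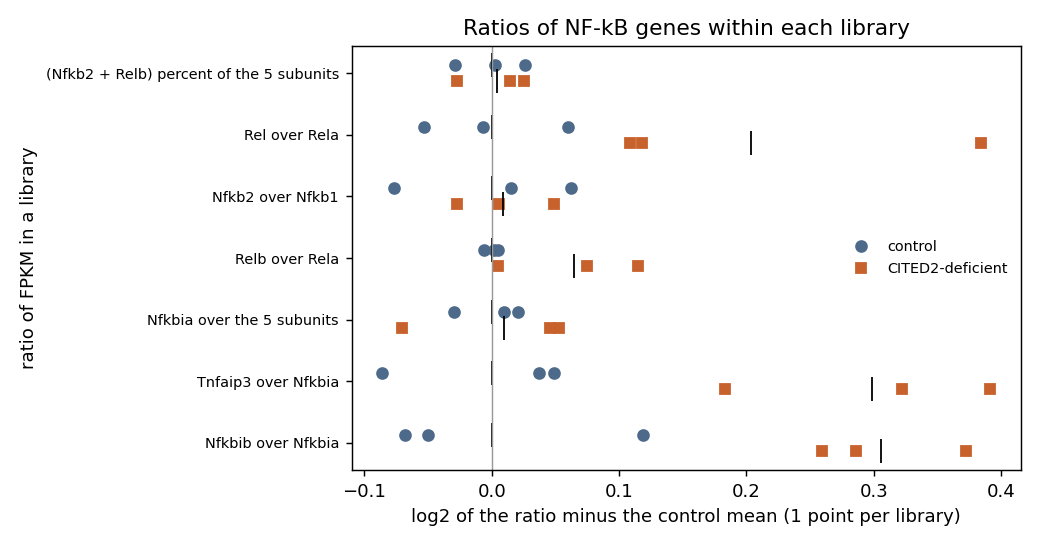
The 7 ratios of NF-kB genes in each library (1 point per library), as log2 of the ratio minus the mean of the control libraries, with short lines at the group means. The CITED2-deficient points lie wholly above the control points for *Rel* over *Rela*, *Tnfaip3* over *Nfkbia* and *Nfkbib* over *Nfkbia*, by 0.20 to 0.31 on average.

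The remaining genes of the pathway were taken from 5 lists arranged by role, with 77 of 83 genes tested. The lists were chosen with earlier results of these data known, so their counts are a description only. Over these, 31 were called higher, 19 lower and 27 were not called, and after median-ratio scaling 39 were higher and 8 lower. Over all tested genes 16.7% were higher and 34.6% lower as deposited, and 22.5% and 22.0% after scaling, so the count of lower genes depended on the scaling in the lists as in all genes. The median log2 fold change was 0.49 in the list of target genes and 0.14 in the adaptors and ligases, and 0.58 and 0.23 after scaling. It was -0.035 in the negative regulators and -0.059 in the IKK list, and both turned positive after scaling, to 0.052 and 0.032. The median of all tested genes was -0.10 as deposited and -0.014 after scaling.

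Among the IkB proteins beside the 4 inhibitors above, *Nfkbie* (IkB-epsilon), *Nfkbid* (IkB-NS) and *Bcl3* were tested and none was called. *Nfkbie* had a mean FPKM of 9.61 ± 0.690 in control and 10.8 ± 0.764 in CITED2-deficient BMDMs (log2 fold change 0.15, adjusted p = 0.121 by limma), and *Bcl3* 52.1 ± 3.40 and 56.4 ± 3.42 (0.11, adjusted p = 0.141). *Nfkbid* had 13.5 ± 0.442 and 12.2 ± 0.251 (-0.13, adjusted p = 0.0661). After median-ratio scaling *Nfkbie* (0.24) and *Bcl3* (0.21) passed the threshold. For the IkB family as a whole, *Nfkbib* was therefore the member called higher as deposited.

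The IKK complex is formed by IKK-beta with IKK-alpha (*Chuk*) and the scaffold NEMO (*Ikbkg*). Of the 10 genes of the complex and its activating kinases, 2 were called higher and 5 lower, against 16.7% and 34.6% of all tested genes. After median-ratio scaling 3 were higher and 2 lower, against 22.5% and 22.0%. *Ikbkg* had an FPKM of 26.8, 26.8 and 27.3 in control libraries and of 23.2, 22.3 and 21.8 in CITED2-deficient libraries, and its log2 fold change was -0.25 (limma, adjusted p = 0.00131). *Chuk* had 33.7, 32.9 and 33.9 in control libraries and 36.5, 37.9 and 36.6 in CITED2-deficient libraries, and its log2 fold change was 0.14 (limma, adjusted p = 0.0146). The catalytic and the scaffold partners of IKK-beta therefore moved in opposite directions, each without overlap. The call of *Chuk* was lost without CITED2-deficient replicate 2 (adjusted p = 0.0525). *Map3k8*, the kinase Tpl2 that is bound by p105, rose by 0.22 on the log2 scale, and *Ikbke*, an IKK-related kinase of the interferon response, fell by 0.30. *Tab1*, a cofactor of the IKK-activating kinase TAK1, had a log2 fold change of -0.26 (adjusted p = 0.0240). Its call was lost after median-ratio scaling (adjusted p = 0.108) and when control replicate 1 (adjusted p = 0.0822) or CITED2-deficient replicate 2 (adjusted p = 0.0674) or 3 (adjusted p = 0.0613) was left out.

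Of the 24 receptor adaptors and ubiquitin ligases, 11 were called higher, 6 lower and 7 were not called, against 16.7% higher and 34.6% lower over all tested genes. The largest increases among those without overlap were in *Traf1* (log2 fold change 0.87, from 7.98 ± 0.830 to 15.4 ± 0.333), in *Rnf31* (0.74, from 22.2 ± 0.866 to 37.9 ± 3.12) and in *Ticam1* (0.53, from 10.8 ± 0.439 to 16.1 ± 0.358), with FPKM as mean ± SD (n = 3). *Traf1* encodes an adaptor of tumor necrosis factor receptors, *Rnf31* the catalytic subunit of the linear ubiquitin ligase that A20 opposes, and *Ticam1* the adaptor TRIF of Toll-like receptors. *Birc3*, *Ripk1* and *Irak4*, which encode a ubiquitin ligase, a death-domain kinase and the kinase beside MyD88, had log2 fold changes of -0.18, -0.16 and -0.16 as deposited. With median-ratio scaling their log2 fold changes were -0.082, -0.071 and -0.066, and their calls were lost. The list then held 13 higher and 0 lower genes, against 22.5% higher and 22.0% lower over all tested genes. The call of *Irak4* was also lost when replicate 1 or 3 of either group was left out, with adjusted p from 0.0765 to 0.0840.

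Of the 16 negative regulators that act beside A20 and the IkB proteins, 4 were called higher and 5 lower, against 16.7% and 34.6% of all tested genes. After median-ratio scaling 6 were higher and 3 lower, against 22.5% and 22.0%. *Tnip1*, which encodes the A20 partner ABIN-1, had an FPKM of 37.9, 41.5 and 37.4 in control libraries and of 64.0, 62.6 and 62.9 in CITED2-deficient libraries (log2 fold change 0.69, adjusted p = 2.69e-06 by limma). Its increase exceeded that of *Tnfaip3* (0.27), a difference between genes that was not tested. *Pdlim2*, a ligase for nuclear p65, and *Zc3h12a*, the RNase Regnase-1, rose by 0.45 and 0.21 on the log2 scale. *Nkiras2*, a Ras-like protein that binds IkB, *Irak3*, an inhibitor of Toll-like receptor kinases, and *Itch*, a ubiquitin ligase that works with A20, had log2 fold changes of -0.34, -0.34 and -0.32, and all 3 were called lower.

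Of 24 tested NF-kB target genes of macrophages, 14 were called higher, 3 lower and 7 were not called, against 16.7% higher and 34.6% lower over all tested genes. After median-ratio scaling 15 were higher and 3 lower, against 22.5% and 22.0%. As the list was chosen with earlier results of these data known, these counts are not a test of it. Of the 30 genes of this list, 29 were listed, and 5 of those were below the filter. *Ptgs2*, counted among the higher genes, had a mean FPKM of 0.388 in control and 1.98 in CITED2-deficient BMDMs. It passed the filter only through the CITED2-deficient libraries, and a gene this low in control could not have been called lower. *Cxcl1*, with means of 0.891 and 1.27, also passed the filter only through these libraries, and was not called. *Ccl5* had an FPKM of 4.59, 7.52 and 3.17 in control libraries and of 73.0, 79.4 and 74.0 in CITED2-deficient libraries (log2 fold change 3.71, adjusted p = 8.73e-07 by limma). *Cxcl10* had 5.31, 4.19 and 4.41 in control libraries and 41.9, 53.1 and 57.7 in CITED2-deficient libraries (3.20, adjusted p = 5.12e-08). These chemokine genes are also known targets of interferon regulatory factors. *Csf1*, the gene of the growth factor that was supplied to the cultures, rose by 1.28 on the log2 scale, from 15.6 ± 1.29 to 39.5 ± 4.91. *Marcksl1* (-0.96), *Ier3* (-0.83) and *Bcl2a1b* (-0.57) were the 3 that were called lower. *Bcl2a1b* is 1 of several near-identical copies, and its value is uncertain. The increases of *Ccl5*, *Cxcl10* and *Csf1* were larger than any change in the 10 NF-kB genes, all of which were under 0.3 as deposited. These 3 were picked as the largest increases of their list, so the contrast says little about the 10 genes.

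**Figure D5:**
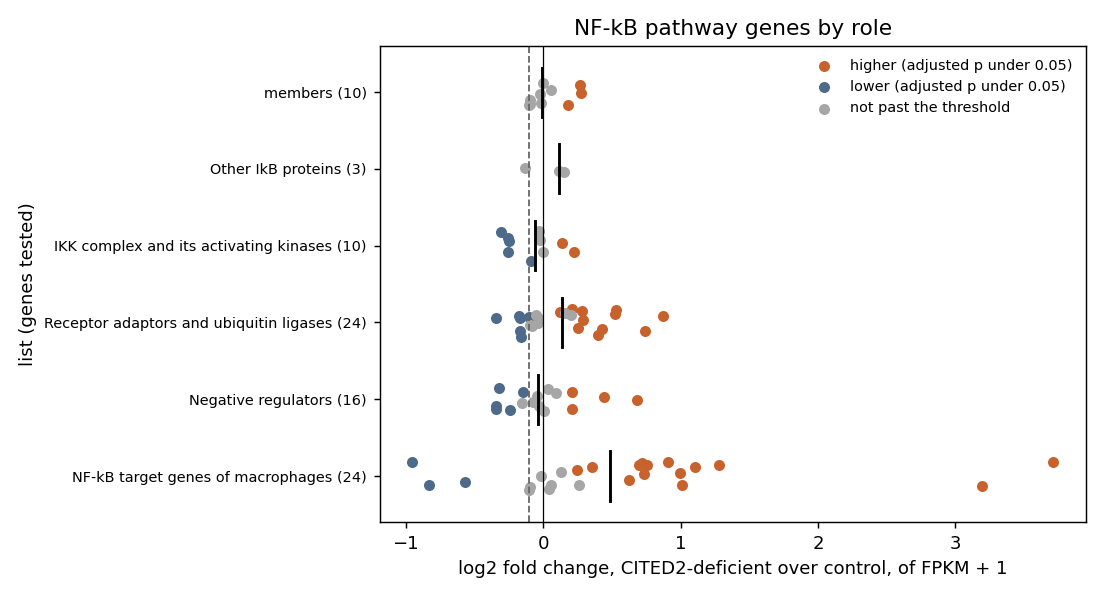
Log2 fold change of FPKM + 1, CITED2-deficient over control, for each tested gene of the 10 subunit, inhibitor and kinase genes (labelled members) and of 5 pathway lists, colored by limma call; short black lines are list medians, the thin solid line is 0 and the dashed line the median of all genes (-0.10). The members stay within -0.10 to 0.28, while the target genes spread from -0.96 to 3.71 with a median of 0.49.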

How the data were processed

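Total RNA of BMDMs was depleted of ribosomal RNA and made into stranded libraries. Reads were aligned to mm10 by the authors using STAR. The deposited FPKM came from Cuffdiff, per gene and library, with a GENCODE annotation. Its release, the strand setting of the counting and the tool versions were not given in the sources used here. All 6 columns were used, none pooled. Column names with older symbols of *Lyz2* and *Cited2* were matched to the sample titles.

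FPKM is scaled to library size, so large changes can shift all other genes. Division by the GENCODE vM21 mean transcript length gave fragments within 0.02 of a whole number for 96.1% of 22239 matched genes. This held for 8 of the 10 NF-kB genes (not for *Rela* and *Nfkb2*). Replicates differed by more than counting error (chi-square per gene 2.30 to 6.36), and none was a duplicate.

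The log2(FPKM + 1) of genes whose mean FPKM reached 1 was fitted with limma 3.58.1 (R 4.3.3, variance trend), with Benjamini-Hochberg adjustment over all tested genes. Fold changes on this scale understate the change of low genes. The fit was tested on simulated data with equal spread in both groups and few changed genes, which does not test the scaling between libraries. The alternatives were pseudocounts of 0.1 and 0.5, dropping the filter or raising it to a mean FPKM of 5, median-ratio scaling, quantile normalization, no trend, a replicate block, each library left out, limma-voom on the recovered fragments and, for ratios, group medians. Replicate numbers did not pair the libraries. The text names all 10 genes, *Cited2*, *Nfkbie*, *Nfkbid*, *Bcl3*, *Chuk* and *Ikbkg*, and of each list the 3 highest and 3 lowest log2 fold changes among called genes without overlap. *Sirt2*, *Psd*, *Ptgs2*, *Cxcl1* and the markers *Lyz2*, *Fcgr1*, *Pdgfrb*, *Elane*, *Mpo*, *Prtn3*, *Ltf*, *Mmp8* and *Kdr* were named after their values were seen. The members and lists were chosen with earlier results of these data known. Promoters are those of RefSeq (GRCm38.p6).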

Additional observations from a re-analysis of the deposited data

How the results depend on the processing

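With median-ratio scaling, the log2 fold change of *Nfkb2* was 0.0019, of *Rela* 0.091, of *Nfkbia* 0.075, of *Nfkbiz* 0.078 and of *Ikbkb* 0.00031, all opposite in sign to the deposited scale, and *Relb* passed the threshold at 0.15. With quantile normalization, *Rela* (0.024), *Nfkbia* (0.0040) and *Nfkbiz* (0.047) changed sign. With limma-voom on the recovered fragments, *Nfkb1* was 0.00084, *Nfkb2* 0.0093, *Rela* 0.10, *Nfkbia* 0.085, *Nfkbiz* 0.088 and *Ikbkb* 0.0063, and *Relb* passed at 0.17. None of the genes that changed sign passed the threshold on either side. The genes called lower fell from 4044 to 2576 with median-ratio scaling and 2617 with voom, and those of the pathway lists from 19 to 8 and 9. The share of higher genes among the called was 32.5% as deposited, 50.5% with median-ratio scaling, 42.0% with quantile normalization and 51.7% with voom. *Rel* stayed at 0.18 without the filter but missed the threshold (adjusted p = 0.0806 by limma).

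With single libraries left out, the log2 fold changes were -0.13 to -0.077 for *Nfkb1*, -0.11 to -0.057 for *Nfkb2* (the latter without control replicate 3), -0.032 to 0.038 for *Rela*, 0.022 to 0.095 for *Relb* (0.022 without CITED2-deficient replicate 3), 0.14 to 0.21 for *Rel*, -0.057 to 0.014 for *Nfkbia*, -0.079 to 0.044 for *Nfkbiz* and -0.12 to -0.068 for *Ikbkb*. The number of the 10 genes called lower was then 0 to 1. *Nfkb1* was that gene without control replicate 2 and *Ikbkb* without CITED2-deficient replicate 2. *Nfkbid* passed the threshold without the variance trend (adjusted p = 0.0411 by limma). *Tab1* missed it without the filter, without the trend, with quantile normalization and with voom (adjusted p = 0.0706, 0.0561, 0.0693 and 0.0968). *Nfkbie* passed with quantile normalization (0.0298) and voom (0.00777), and *Bcl3* with voom (0.00974). *Birc3*, *Ripk1* and *Irak4* missed it with voom (0.198, 0.211 and 0.322), and *Irak4* with quantile normalization (0.134). Some other lost or gained calls are given with those genes. The within-library ratios near 0 changed sign when single libraries were left out. Their log2 differences were -0.030 to 0.040 for *Nfkb2* over *Nfkb1* (-0.0092 between group medians), -0.010 to 0.020 for the share of *Nfkb2* and *Relb*, and -0.013 to 0.049 for *Nfkbia* over the 5 subunits. *Rel* over *Rela* ranged from 0.11 to 0.25.

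The replicate numbers are shared between the genotypes, but same-numbered libraries did not deviate together (correlations of 0.014, 0.0078 and 0.040), and not every library correlated best with its own number. With a replicate block, 1895 genes were higher and 3813 lower, *Rel* stayed at 0.18 and missed the threshold (adjusted p = 0.0630), as did *Irak4* (adjusted p = 0.0542), and the calls of the other 9 genes were unchanged. *Nfkbib* rested on the fewest fragments of the 10 genes, with 507 in control replicate 2.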
